A study of Mus musculus with 5 samples.

Results

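Genes of periosteal and tendon fibroblasts were read in sorted marrow stromal cells. The 10 listed by name were *Postn*, *Tnmd*, *Scx*, *Mkx*, *Tnc*, *Thbs4*, *Cilp*, *Pi16*, *Clec3b* and *Angptl7*, taken from a table of 30046 counted features. Of these, 9 had a row of counts, and *Thbs4* was not analysed here. The data are bulk RNA-seq of stromal cells sorted from femurs at P21, with 3 libraries of Dlx5CE-E12.5 cells and 2 libraries of Fgfr3CE-E12.5 cells, which the labels number replicates 2 and 3. Dlx5CE-E12.5 mice carried Cxcl12(GFP/+), Dlx5(CreER/+) and R26R(tdTomato/+) alleles. Fgfr3CE-E12.5 mice carried the same GFP and tdTomato alleles with an Fgfr3-iCreER driver. All mice therefore had 1 *Cxcl12* allele with GFP placed in it, and all received tamoxifen at E12.5. The creER driver, active where *Dlx5* or *Fgfr3* is expressed, switches on tdTomato at the pulse, and the descendants of those cells keep the colour. Cells both high for GFP and positive for tdTomato were sorted from pooled littermates, and the purity after sorting was not determined. The comparison asks how marrow stromal cells from the fetal perichondrial (*Dlx5*) and cartilage (*Fgfr3*) lineages differ.

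The periosteum is the fibrous sheet around bone, and tendons join muscle to bone at its surface. Tendon cells are laid down under the transcription factors Scx and Mkx, which drive collagen genes and, in the case of Scx, the membrane protein Tnmd. The sheath and fascia around them hold fibroblasts marked by Pi16 and Clec3b. Postn, Tnc, Thbs4 and Cilp are secreted into the matrix that these cells build and are most abundant where that matrix is growing or under load.

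Total counts were 22035650 to 32563758 in the Dlx5CE-E12.5 libraries and 56355203 to 58166285 in the Fgfr3CE-E12.5 libraries. A count of 3, taken as the smallest detectable amount, corresponds to 0.0516 to 0.136 CPM, the unit of counts scaled to the depth of the library. This limit speaks of counting error alone. Levels below are normalized CPM, scaled by the TMM factors of edgeR, and log2 fold changes are Fgfr3 over Dlx5, with n = 3 and n = 2 libraries throughout. A gene was called different when edgeR's quasi-likelihood test gave an adjusted p-value under 0.05 and the absolute log2 fold change was above 1. According to the methods, the Dlx5CE-E12.5 libraries were read with 150-base paired ends on a NovaSeq and the Fgfr3CE-E12.5 libraries with 50-base single ends on a HiSeq, while the labels name the HiSeq for all. Under that description the sequencing and the lineage cannot be told apart. In bulk samples, fewer cells of a type and less RNA per cell cannot be told apart either. The sorted cells carried marrow stroma genes: the 14 listed, led by *Cxcl12*, *Lpl* and *Gas6*, summed to 45651 to 48957 CPM in Dlx5CE-E12.5 cells, and to 20114 and 12727 CPM in Fgfr3CE-E12.5 replicates 2 and 3. *Cxcl12* is the gene whose GFP allele set the sort. Without it, a sum added after seeing the data, they came to 24399 to 26552 against 12045 and 6925 CPM. *Foxc1*, also in this list, ran the other way, with means of 47.7 CPM in Dlx5CE-E12.5 and 337 CPM in Fgfr3CE-E12.5 cells. Libraries of a lineage differed by a median SD of 0.16 (Dlx5CE-E12.5) and 0.20 (Fgfr3CE-E12.5) on the log2 CPM scale.

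The list did not move as a block. *Mkx* was higher in Dlx5CE-E12.5 cells, *Postn* passed the test in Fgfr3CE-E12.5 cells by less than the fold required for a call, and *Tnc* was abundant in both with overlapping libraries. *Pi16* was called higher in Fgfr3CE-E12.5 cells on all libraries, but its log2 fold change of 2.07 was 0.61 without Fgfr3CE-E12.5 replicate 3 (adjusted p = 0.220 by edgeR), and 3 of the 5 settings that drop 1 library lost the call. *Scx*, *Tnmd*, *Clec3b*, *Angptl7* and *Cilp* stayed near or below 1 CPM in each library. The filter of the study's methods keeps genes that reach 10 CPM in 2 libraries or more, which 3 members did. Of these, 1 was called higher in Dlx5CE-E12.5 cells, beside 13.1% of all 10088 genes tested, and 1, *Postn*, passed the adjusted p without the fold, as 48.4% of all genes did, while 16.4% of all genes were called higher in Fgfr3CE-E12.5 cells. With a minimum of 1 CPM, 4 members entered, of which 1 was called higher in Dlx5CE-E12.5 cells (12.9% of all 13225 genes) and 1 in Fgfr3CE-E12.5 cells (16.6% of all). The libraries of the lineages did not overlap for 5 of the 9 members with counts, beside 58.0% of the 17092 protein-coding genes and reporters with counts. These 5 members split into 3 with the Fgfr3CE-E12.5 libraries above and 2 with them below. With shares this near the background, the counts show nothing particular to the list.

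**Figure D1:**
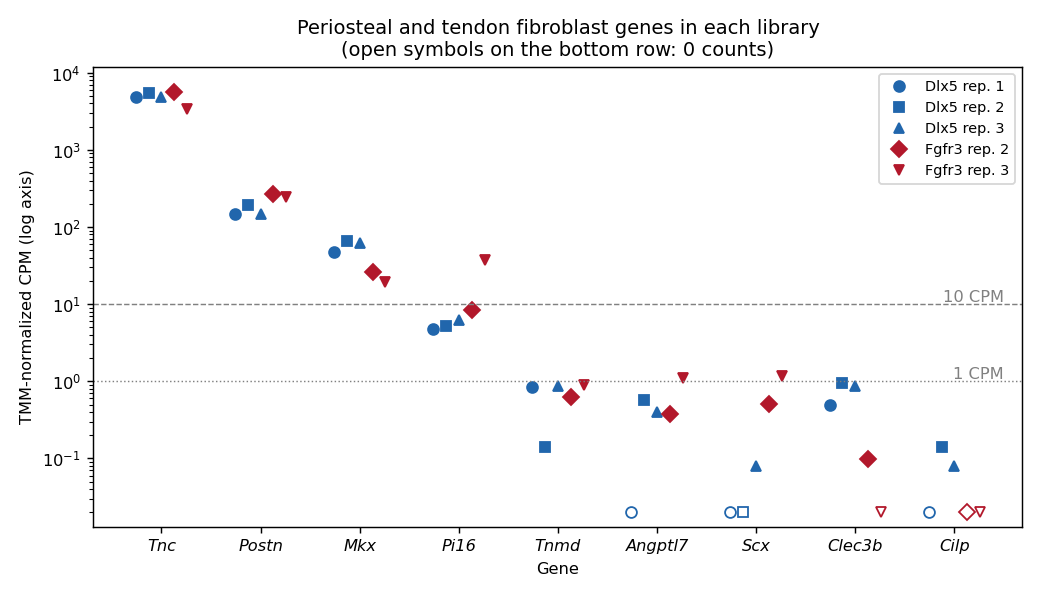
Normalized CPM of each member with counts in each library, on a log axis, with Dlx5CE-E12.5 and Fgfr3CE-E12.5 libraries as separate points and 0 counts as open symbols on the bottom row. Dashed and dotted lines stand at 10 and 1 CPM. *Tnc* lies at 3396 to 5652 CPM in all 5 libraries, *Mkx* is lower and *Postn* higher in both Fgfr3CE-E12.5 libraries, and 5 members lie near or below 1 CPM.

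*Tnc* and *Postn* are the secreted matrix members. *Tnc* encodes tenascin C, a many-armed glycoprotein of developing tendon and perichondrium that loosens cell adhesion. It lies on chromosome 4 (GRCm38 chr4:63959785-64047015, minus strand) and was by far the most abundant member. Its level was 4828, 5521 and 4802 CPM in Dlx5CE-E12.5 replicates 1 to 3, and 5652 and 3396 CPM in Fgfr3CE-E12.5 replicates 2 and 3. The Fgfr3CE-E12.5 libraries thus held both the highest and the lowest value. The means were 5050 ± 408 and 4524 ± 1595 CPM (SD), and the log2 fold change was -0.16 ± 0.25 (SE) with an adjusted p of 0.631 in edgeR's quasi-likelihood test. The sign depended on the libraries and the scaling: the log2 fold change was 0.16 without Fgfr3CE-E12.5 replicate 3, -0.57 without replicate 2 (adjusted p = 0.0482, under the fold required) and 0.05 with scaling by library size alone. An antisense transcript, *8030451A03Rik*, overlaps 176 of the exon bases of *Tnc* (2.27%) and had 177 to 429 counts per library against 117232 to 347749 for *Tnc*.

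*Postn* encodes periostin, a matricellular protein of periosteum and periodontal ligament that binds integrins and helps collagen fibres to cross-link. It lies at GRCm38 chr3:54361109-54391037 on the plus strand. Its level was 149, 195 and 148 CPM in the Dlx5CE-E12.5 libraries, and 270.2 and 245 CPM in the Fgfr3CE-E12.5 libraries. Both Fgfr3CE-E12.5 libraries lay above all the Dlx5CE-E12.5 libraries. The means were 164 ± 26.5 and 258 ± 17.6 CPM (SD), 1.57-fold higher in Fgfr3CE-E12.5 cells, with a log2 fold change of 0.65 ± 0.17 (SE) and an adjusted p of 0.0163 by edgeR, and with the fold threshold it was not called. The adjusted p was 0.0631 without Dlx5CE-E12.5 replicate 3 and 0.0527 without Fgfr3CE-E12.5 replicate 2, while the log2 fold change stayed between 0.58 and 0.79 when any 1 library was left out.

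The promoters of these matrix genes and of *Pi16* are printed because these are members that passed a filter on low counts and have a window in RefSeq's table, which held 7 of the 10 members. Each run is 300 bases of GRCm38.p6, from 250 before to 50 after a RefSeq start, and reads along the gene's strand. Capitals mark CANNTG, the E-box core that Scx and other bHLH factors recognise, and TATAAA on either strand, the letters of the TATA box, with no overlap between the motifs marked. Matches were marked wherever they lie in the window, so a TATAAA far from the start is not thereby a TATA box.
Postn, chr3:54360857-54361156: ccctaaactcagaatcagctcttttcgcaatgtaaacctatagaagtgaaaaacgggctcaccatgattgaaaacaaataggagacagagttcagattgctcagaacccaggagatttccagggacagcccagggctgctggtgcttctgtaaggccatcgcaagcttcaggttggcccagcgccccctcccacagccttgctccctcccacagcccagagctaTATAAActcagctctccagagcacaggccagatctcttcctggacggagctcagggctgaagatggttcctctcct
Tnc, chr4:64046966-64047265: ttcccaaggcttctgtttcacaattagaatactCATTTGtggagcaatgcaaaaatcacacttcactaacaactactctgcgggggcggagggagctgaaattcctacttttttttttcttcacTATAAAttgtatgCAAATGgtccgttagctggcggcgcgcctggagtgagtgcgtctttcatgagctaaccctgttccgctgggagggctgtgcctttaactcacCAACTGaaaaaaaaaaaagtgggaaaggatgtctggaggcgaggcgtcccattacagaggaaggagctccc
Pi16, chr17:29318632-29318931: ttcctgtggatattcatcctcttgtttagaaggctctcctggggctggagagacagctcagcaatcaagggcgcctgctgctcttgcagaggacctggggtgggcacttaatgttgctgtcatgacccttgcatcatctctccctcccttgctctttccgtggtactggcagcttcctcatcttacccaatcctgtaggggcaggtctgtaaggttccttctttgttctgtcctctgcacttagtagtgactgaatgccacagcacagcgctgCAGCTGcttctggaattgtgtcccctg
The *Postn* window held 0 CANNTG and 1 TATAAA, the *Tnc* window 3 and 1, and the *Pi16* window 1 CANNTG and 0 TATAAA. Of 32851 mouse promoter windows of this length, 72.31% held CANNTG and 13.62% held TATAAA on either strand. *Postn* and *Tnc* each have another RefSeq start whose window is not shown. These matches describe letters and were not related to the levels.

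*Cilp* is the matrix member at the floor. It encodes cartilage intermediate layer protein, which is laid down in cartilage and tendon and binds TGF-beta. Its counts were 0, 3 and 2 in the Dlx5CE-E12.5 libraries and 0 in each Fgfr3CE-E12.5 library. None of the 5 libraries was above the smallest detectable amount, so no fold is given.

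Among the transcription factors, *Mkx* was the member called in Dlx5CE-E12.5 cells. *Mkx* encodes Mohawk, a TALE homeobox factor that switches on tendon collagen and proteoglycan genes, and lies at GRCm38 chr18:6934518-7004780 on the minus strand. Its level was 47.8, 65.6 and 61.5 CPM in Dlx5CE-E12.5 replicates 1 to 3, and 26.4 and 19.3 CPM in Fgfr3CE-E12.5 replicates 2 and 3. All the Dlx5CE-E12.5 libraries lay above both Fgfr3CE-E12.5 libraries. The mean was 58.3 ± 9.31 against 22.8 ± 5.07 CPM (SD), 2.55-fold higher in Dlx5CE-E12.5 cells, with a log2 fold change of -1.35 ± 0.22 (SE) and an adjusted p of 0.00247 by edgeR. It was called with any 1 library left out, at a log2 fold change of -1.60 to -1.14, but leaving out an Fgfr3CE-E12.5 library leaves 1, which is then assumed to vary like the Dlx5CE-E12.5 libraries. Tested against a 2-fold change in place of none (edgeR's glmTreat), it was not called, with an adjusted p of 0.108. Of the 50-base windows in *Mkx* transcripts, 5.21% also occur in transcripts of another gene.

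*Scx* encodes scleraxis, the bHLH factor that marks tendon progenitors. It had 0, 0 and 2 counts in the Dlx5CE-E12.5 libraries, all below the smallest detectable amount, and 31 and 75 counts in the Fgfr3CE-E12.5 libraries, which are 0.504 and 1.18 CPM. The Fgfr3CE-E12.5 libraries were both above the Dlx5CE-E12.5 libraries and low. Summed over libraries and scaled, the counts were 32.7-fold higher in Fgfr3CE-E12.5 cells, with a 95% interval of 8.83 to 273 that covers counting error only. In a fit with no filter on low counts, in which 13.3% of 17092 genes were called higher in Fgfr3CE-E12.5 cells, edgeR's adjusted p was 0.0348 at a log2 fold change of 4.84 ± 1.44 (SE), a fitted size that depends on edgeR's prior count. This call was lost without Fgfr3CE-E12.5 replicate 3 (adjusted p = 0.160), Dlx5CE-E12.5 replicate 1 (0.0564) or Dlx5CE-E12.5 replicate 2 (0.102).

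The whole of *Scx* (GRCm38 chr15:76457452-76459458, plus strand) lies inside *Bop1*, a ribosome assembly gene on the opposite strand, with 0 exon bases in common. The library kit does not mark strand, so reads from unspliced *Bop1* transcripts and from *Scx* cannot be told apart. *Bop1* had 1233, 834 and 1106 counts in the Dlx5CE-E12.5 libraries and 3955 and 4329 in the Fgfr3CE-E12.5 libraries. *Scx* counts were 0, 0 and 0.181% of the *Bop1* counts in Dlx5CE-E12.5 cells and 0.784% and 1.73% in Fgfr3CE-E12.5 cells. This ratio does not separate the reads of the genes, and how much of the *Scx* count came from *Bop1* was not tested.

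*Tnmd* encodes tenomodulin, the type II membrane glycoprotein of mature tendon cells and a target of Scx (GRCm38 chrX:133850980-133865577, plus strand). Its counts were 26, 3 and 22 in the Dlx5CE-E12.5 libraries and 38 and 56 in the Fgfr3CE-E12.5 libraries, or 0.141 to 0.875 CPM against 0.618 and 0.884 CPM. The libraries overlapped, and Dlx5CE-E12.5 replicate 2 was the low one. With no filter on low counts the log2 fold change was 0.25 with an adjusted p of 0.860 by edgeR, and it became -0.21 without Dlx5CE-E12.5 replicate 2 and -0.03 without Fgfr3CE-E12.5 replicate 3.

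*Angptl7*, a secreted angiopoietin-like protein of tendon and eye, is likewise nested, in *Mtor* on the opposite strand (GRCm38 chr4:148495183-148500460, minus strand, 0 exon bases in common). Its counts were 0, 12 and 10 in the Dlx5CE-E12.5 libraries and 23 and 69 in the Fgfr3CE-E12.5 libraries, or 0 to 0.565 CPM against 0.374 and 1.09 CPM, and the libraries overlapped. With no filter on low counts the log2 fold change was 1.20 with an adjusted p of 0.530 by edgeR. As a share of the *Mtor* counts it was 0, 2.33% and 1.78% in Dlx5CE-E12.5 cells and 2.52% and 7.32% in Fgfr3CE-E12.5 cells. On this scale the libraries did not overlap, but only narrowly: 2.33% is 12 of 516 counts and 2.52% is 23 of 914. *Mtor* was itself lower in the Fgfr3CE-E12.5 libraries, at 14.9 CPM in each against 18.1 to 24.3 CPM, which raises the share there. Fgfr3CE-E12.5 replicate 3 stood above replicate 2 as it did for *Scx*.

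**Figure D2:**
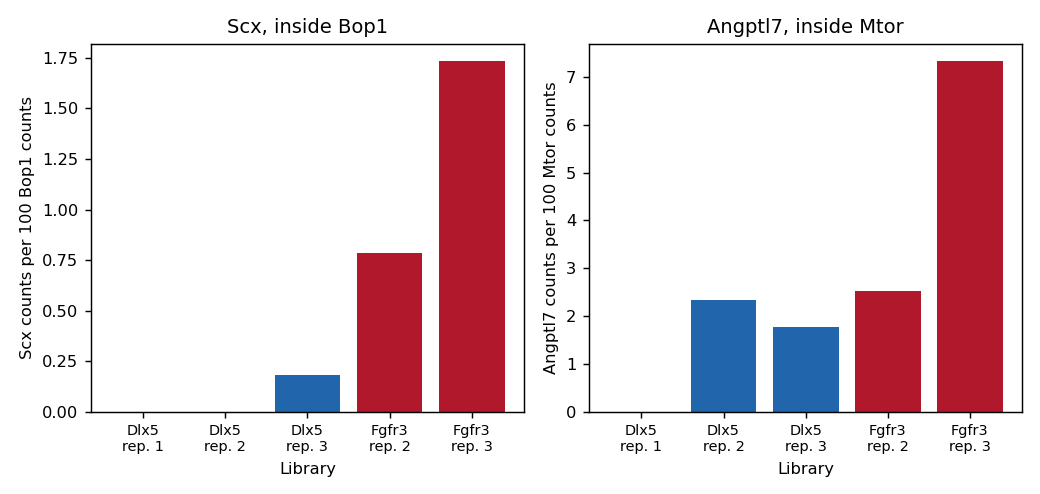
Counts of *Scx* and *Angptl7* in each library as a percent of the counts of the gene around each, *Bop1* and *Mtor*. *Scx* reached 0.784% and 1.73% in the Fgfr3CE-E12.5 libraries and at most 0.181% in the Dlx5CE-E12.5 libraries, and *Angptl7* reached 7.32% in Fgfr3CE-E12.5 replicate 3.

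The fascia members are *Pi16* and *Clec3b*. *Pi16* encodes a CAP-family protein that marks a widespread class of adventitial and fascial fibroblasts (GRCm38 chr17:29317680-29330593, plus strand). Its level was 4.73, 5.27 and 6.16 CPM in the Dlx5CE-E12.5 libraries, and 8.37 and 37.6 CPM in Fgfr3CE-E12.5 replicates 2 and 3. Replicate 3 stood far above the other libraries. The fit with a minimum of 1 CPM gave a log2 fold change of 2.07 ± 0.55 (SE) and an adjusted p of 0.0210 by edgeR, 4.20-fold higher in Fgfr3CE-E12.5 cells. That call rested on single libraries: without Fgfr3CE-E12.5 replicate 3 the log2 fold change was 0.61 (adjusted p = 0.220), and without Dlx5CE-E12.5 replicate 1 or 2 the adjusted p was 0.0612 or 0.0636. The 4.50-fold gap between the Fgfr3CE-E12.5 libraries was met or passed by 1.31% of the 13225 genes. Transcripts of *Pi16* share 3.88% of their 50-base windows with another gene, and the antisense gene *AC162182.1*, which overlaps it, had 0 to 5 counts per library.

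*Clec3b* encodes tetranectin, a C-type lectin that binds plasminogen and is secreted by the same fibroblasts (GRCm38 chr9:123150946-123157432, plus strand). Its counts were 15, 20 and 22 in the Dlx5CE-E12.5 libraries and 6 and 0 in the Fgfr3CE-E12.5 libraries, or 0.489 to 0.942 CPM against 0.0975 and 0 CPM. All the Dlx5CE-E12.5 libraries were above both Fgfr3CE-E12.5 libraries. The summed and scaled counts were 15.4-fold higher in Dlx5CE-E12.5 cells, with a 95% interval of 6.66 to 43.7 for counting error only. With no filter on low counts, edgeR's quasi-likelihood test gave a log2 fold change of -3.90 ± 1.49 (SE) and an adjusted p of 0.0835, which was not a call. On the same libraries, edgeR's exact test and DESeq2 gave adjusted p-values of 0.0201 and 0.0096, so the call depended on the test.

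Levels per length rank the members within a lineage. In CPM per kilobase of exon, Dlx5CE-E12.5 cells had 650 ± 52.5 of *Tnc*, 18.9 ± 3.05 of *Postn*, 14.2 ± 2.27 of *Mkx*, 0.847 ± 0.114 of *Pi16*, 0.775 ± 0.246 of *Clec3b*, 0.459 ± 0.308 of *Tnmd*, 0.149 ± 0.135 of *Angptl7*, 0.0173 ± 0.0167 of *Cilp* and 0.0132 ± 0.0229 of *Scx* (SD). *Tnc*, *Postn* and *Mkx* stood apart from each other and from the rest, and from *Pi16* downward the libraries of neighbours in this order overlapped. Fgfr3CE-E12.5 cells had 582 ± 205 of *Tnc*, 29.6 ± 2.02 of *Postn*, 5.58 ± 1.24 of *Mkx*, 3.62 ± 3.25 of *Pi16*, 0.555 ± 0.139 of *Tnmd*, 0.420 ± 0.239 of *Scx*, 0.339 ± 0.234 of *Angptl7*, 0.0492 ± 0.0695 of *Clec3b* and 0 of *Cilp*. There *Mkx* and *Pi16* overlapped, as did *Tnmd*, *Scx* and *Angptl7*. Dividing by the longest transcript raised *Postn* to 31.4 and 49.3 CPM per kilobase and left it second in both lineages. It also raised *Pi16* in Dlx5CE-E12.5 cells to 1.35, with libraries at 1.18 to 1.54 that lay above those of *Clec3b* at 0.493 to 0.949.

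The Fgfr3CE-E12.5 libraries differed from each other as well as from the Dlx5CE-E12.5 libraries. Replicate 3 over replicate 2 was 4.50-fold for *Pi16*, 2.91-fold for *Angptl7*, 2.35-fold for *Scx* and 1.43-fold for *Tnmd*, and 0.908 for *Postn*, 0.729 for *Mkx* and 0.601 for *Tnc*. A gap at least as large as that of *Tnc* was met by 11.3% of the 10088 genes, that of *Mkx* by 28.4% and that of *Postn* by 73.6%. The 20 leukocyte markers, led by *Mpo*, *Lyz2* and *S100a8*, summed to 1801 to 2461 CPM in Dlx5CE-E12.5 cells and to 5553 and 12097 CPM in Fgfr3CE-E12.5 replicates 2 and 3. All 20 were higher in replicate 3. At the 1 CPM filter 19 (95%) were called higher in Fgfr3CE-E12.5 cells, beside 16.6% of all genes. The 16 chondrocyte markers, led by *Col2a1*, *Sox9* and *Col9a3*, summed to 132 to 141 CPM in Dlx5CE-E12.5 cells, where 8 of them, *Acan*, *Matn1*, *Col9a1*, *Cnmd*, *Snorc*, *Col10a1*, *Ucma* and *Epyc*, had at most 3 counts in each library, and to 3479 and 504 CPM in Fgfr3CE-E12.5 replicates 2 and 3. Without *Col2a1*, a sum added after seeing the data, the chondrocyte markers came to 129 to 133 CPM against 881 and 161 CPM. *Sox9* made up most of the Dlx5CE-E12.5 sums and ran the other way, though it was not called. Its level was 124, 117 and 122 CPM in the Dlx5CE-E12.5 libraries and 96.8 and 53.7 CPM in the Fgfr3CE-E12.5 libraries. The part of leukocyte or cartilage RNA in the values of *Pi16*, *Scx*, *Angptl7* and *Tnc* was not tested.

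**Figure D3:**
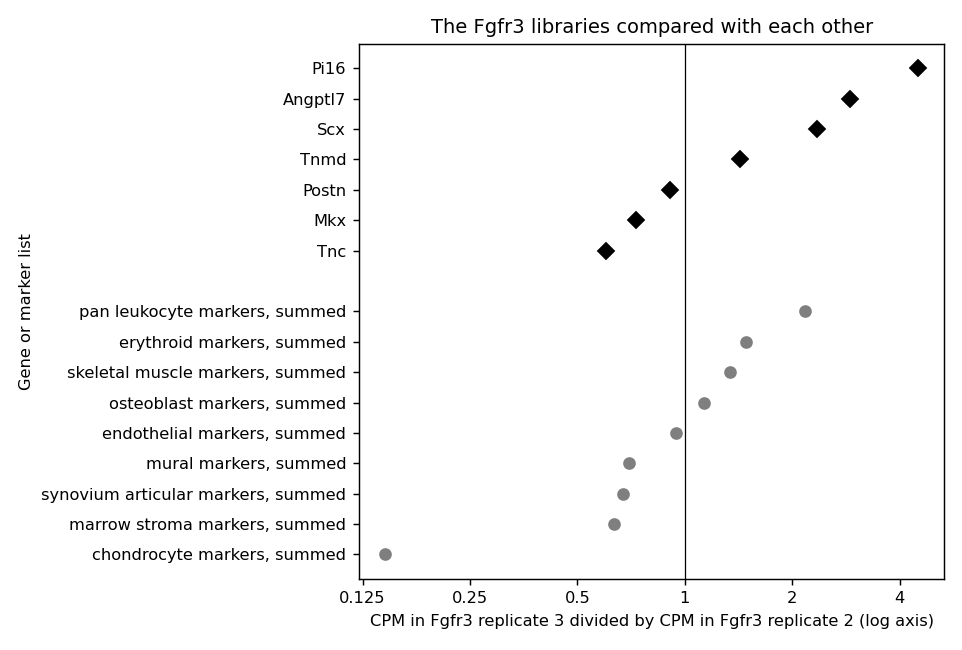
Level in Fgfr3CE-E12.5 replicate 3 over that in replicate 2, on a log scale, for the members above the floor and for the summed marker lists. *Pi16* at 4.50-fold and the leukocyte markers at 2.18-fold were higher in replicate 3, and the chondrocyte markers at 0.145 were lower.

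Markers of skeletal muscle were low in both lineages. The 9 skeletal muscle markers with counts, led by *Actn3*, *Eno3* and *Mylpf*, summed to 24.4 to 30.9 CPM in Dlx5CE-E12.5 cells and 20.6 and 27.5 CPM in Fgfr3CE-E12.5 cells, with *Pvalb* at most 3 counts in each library and *Acta1* at most 3 in the Fgfr3CE-E12.5 libraries. The 15 osteoblast markers, led by *Mmp13*, *Spp1* and *Col1a1*, summed to 7170 to 8485 CPM in Dlx5CE-E12.5 cells and to 22869 and 25871 CPM in Fgfr3CE-E12.5 cells, with none at the floor in either lineage. *Postn* and *Tnc* are also made by osteoblast-lineage cells, and the part of such cells in their levels was not tested.

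The other genes of the tendon, periosteum and fibroblast programs were read from lists in the fit with a minimum of 1 CPM, and some genes sit in more than 1 list. Of 35 tendon matrix genes tested, 10 (28.6%) were higher in Dlx5CE-E12.5 cells and 5 (14.3%) in Fgfr3CE-E12.5 cells, with a median log2 fold change of -0.38, beside 12.9%, 16.6% and a median of 0.01 over all 13225 genes tested, which are protein-coding apart from the reporters. With all 16708 features at this filter in place of these, 22.5% were higher in Dlx5CE-E12.5 cells and 17.1% in Fgfr3CE-E12.5 cells. *Col14a1*, a collagen on the surface of fibrils, was at 16.9, 17.4 and 17.0 CPM in the Dlx5CE-E12.5 libraries and 0.585 and 0.489 CPM in the Fgfr3CE-E12.5 libraries, 32.1-fold higher in Dlx5CE-E12.5 cells (adjusted p = 5.03e-05 by edgeR). It passed the filter through the Dlx5CE-E12.5 libraries alone. *Prelp*, a leucine-rich proteoglycan, was 9.99-fold higher in Dlx5CE-E12.5 cells (adjusted p = 0.000685), and *Loxl1*, a collagen and elastin cross-linking oxidase, was 7.32-fold higher (adjusted p = 8.43e-05). Higher in Fgfr3CE-E12.5 cells were *Col22a1*, a collagen of tissue junctions, with a log2 fold change of 3.06 (adjusted p = 0.00599), the cartilage and tendon protein *Comp* with 4.64 (adjusted p = 0.0169) and the proteoglycan *Fmod* with 1.73 (adjusted p = 0.00860). *Comp* was at 181 CPM in Fgfr3CE-E12.5 replicate 2 and at 5.68 in replicate 3, near the 2.32 to 4.57 CPM of the Dlx5CE-E12.5 libraries, the same order as the chondrocyte markers. The count higher in Fgfr3CE-E12.5 cells was 2 without Dlx5CE-E12.5 replicate 2 or Fgfr3CE-E12.5 replicate 2, and 3 without Dlx5CE-E12.5 replicate 3.

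**Figure D4:**
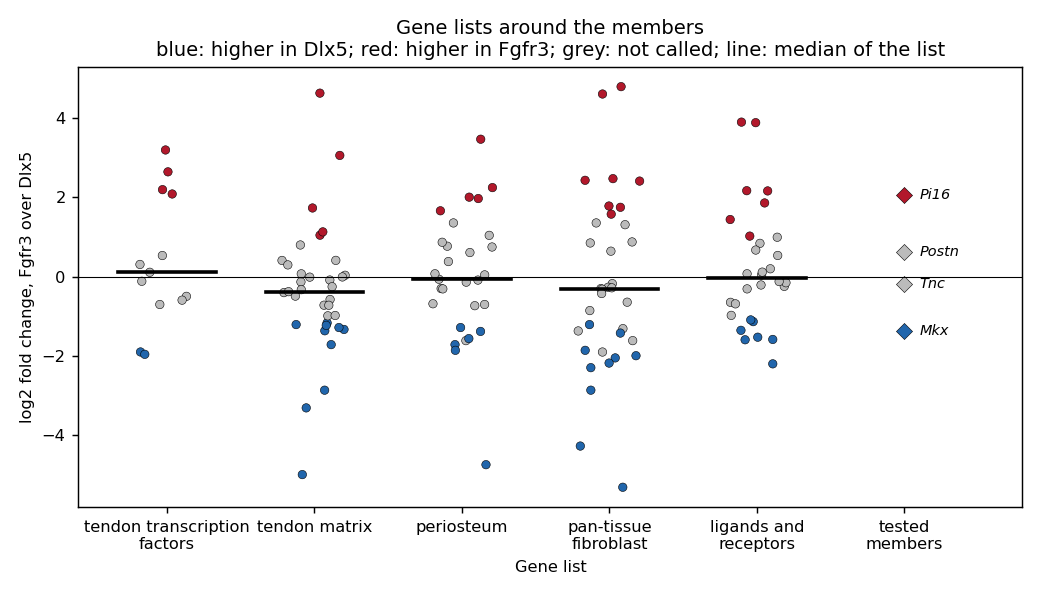
Log2 fold change, Fgfr3 over Dlx5, in the fit with a minimum of 1 CPM, of each gene tested in the lists of tendon transcription factor, tendon matrix, periosteum, shared fibroblast and ligand and receptor genes (points) with the list median (line), beside the 4 members tested (diamonds). The medians lie between -0.38 for the tendon matrix and 0.11 for the transcription factors, and genes called in each direction stand in every list.

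Of 13 tendon and limb connective tissue transcription factors tested, 2 (15.4%) were higher in Dlx5CE-E12.5 cells and 4 (30.8%) in Fgfr3CE-E12.5 cells, beside 12.9% and 16.6% of all genes, each count falling to 1 without Fgfr3CE-E12.5 replicate 3. *Eya1*, a cofactor of homeobox factors, was 3.75-fold higher in Dlx5CE-E12.5 cells at 108 to 120.2 against 38.2 and 24.0 CPM (adjusted p = 0.000755 by edgeR), while its relative *Eya2* was 4.58-fold higher in Fgfr3CE-E12.5 cells at 32.5 and 42.9 against 7.63 to 8.45 CPM (adjusted p = 0.000264). *Tbx3*, a T-box factor of limb patterning, was 3.91-fold higher in Dlx5CE-E12.5 cells (adjusted p = 0.0112). *Etv4*, an FGF-responsive ETS factor, and *Tcf15*, the bHLH factor paraxis, were higher in Fgfr3CE-E12.5 cells at log2 fold changes of 2.65 and 3.20 (adjusted p = 0.0136 and 0.0367), both from levels below 1 CPM. Both thus passed the filter through the Fgfr3CE-E12.5 libraries alone. With no filter on low counts, edgeR's quasi-likelihood test no longer called *Tcf15* (adjusted p = 0.0700) and still called *Etv4* (0.0141), and the count for the list was 3.

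Of 29 periosteum and skeletal progenitor genes tested, 6 (20.7%) were higher in Dlx5CE-E12.5 cells and 5 (17.2%) in Fgfr3CE-E12.5 cells, beside 12.9% and 16.6% of all genes, with a median log2 fold change of -0.07. The count in Fgfr3CE-E12.5 cells was 3 without Fgfr3CE-E12.5 replicate 2 and 8 with scaling by library size alone. *Thy1*, a surface glycoprotein used to sort fibroblasts, was at 4.19 to 6.59 CPM in Dlx5CE-E12.5 cells and 0.146 and 0.252 CPM in Fgfr3CE-E12.5 cells, with a log2 fold change of -4.76 (adjusted p = 0.000692 by edgeR). It too passed the filter through the Dlx5CE-E12.5 libraries alone. The PDGF receptor *Pdgfra* was 3.64-fold and the proteoglycan *Aspn* 3.30-fold higher in Dlx5CE-E12.5 cells (adjusted p = 0.00145 and 0.00156). *Mcam* (CD146), *Nt5e* (CD73) and the smooth muscle actin *Acta2* were 11.1-fold, 4.75-fold and 4.02-fold higher in Fgfr3CE-E12.5 cells (adjusted p = 0.000214, 0.000339 and 0.0162).

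Of 35 genes of fibroblasts shared across organs, the class that *Pi16* and *Clec3b* mark, 10 (28.6%) were higher in Dlx5CE-E12.5 cells and 8 (22.9%) in Fgfr3CE-E12.5 cells, beside 12.9% and 16.6% of all genes, with a median log2 fold change of -0.32. The elastic microfibril genes *Mfap5* and *Mfap4* were higher in Dlx5CE-E12.5 cells, at log2 fold changes of -5.33 and -4.28 (adjusted p = 0.00221 and 0.000284 by edgeR). *Smpd3*, a sphingomyelinase that also stands in the osteoblast list, was at 1.70 to 2.31 CPM in Dlx5CE-E12.5 cells and 51.9 and 46.2 CPM in Fgfr3CE-E12.5 cells (adjusted p = 4.72e-05). *Pcolce2*, an enhancer of procollagen processing, and *Ackr3*, a scavenger receptor for Cxcl12, were higher in Fgfr3CE-E12.5 cells at log2 fold changes of 4.80 and 2.47 (adjusted p = 0.00570 and 0.0187), with *Pcolce2* at 11.8 CPM in replicate 2 and 1.42 CPM in replicate 3.

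Relatives of the members were also compared, and 23 of 33 were tested, with 5 (21.7%) higher in Dlx5CE-E12.5 cells and 7 (30.4%) in Fgfr3CE-E12.5 cells, beside 12.9% and 16.6% of all genes. The 7 became 4 with the trend on GC content removed. *Cnmd*, the cartilage relative of *Tnmd*, had 0, 2 and 0 counts in the Dlx5CE-E12.5 libraries and 6109 and 575 counts in the Fgfr3CE-E12.5 libraries. It thus passed the filter through the Fgfr3CE-E12.5 libraries alone. The summed and scaled counts of *Cnmd* were 2061-fold higher in Fgfr3CE-E12.5 cells (95% interval 570 to 17023, counting error only), whereas *Tnmd* overlapped. Among the relatives of *Angptl7*, whose own libraries overlapped, *Angptl1*, *Angptl2* and *Angptl4* were 4.59-fold, 3.31-fold and 3.51-fold higher in Dlx5CE-E12.5 cells (adjusted p = 0.00156, 0.00156 and 0.00375 by edgeR). *Angptl4*, an inhibitor of lipoprotein lipase, reached 748 to 1135 CPM there.

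**Figure D5:**
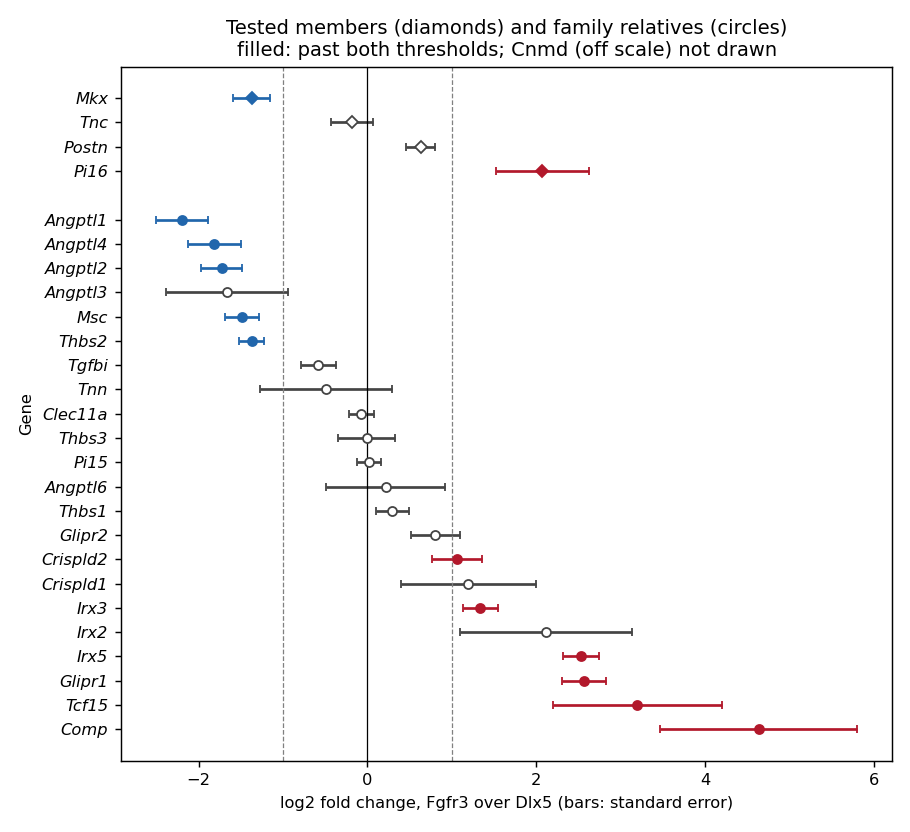
Log2 fold change, Fgfr3 over Dlx5, in the fit with a minimum of 1 CPM, of the 4 members tested (diamonds) and of their family relatives (circles), with SE as bars, filled where called, and *Cnmd* off the scale and not drawn. *Mkx* and *Pi16* lie on opposite sides of 0, and *Angptl1*, *Angptl2* and *Angptl4* lie at -2.20, -1.73 and -1.81.

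Receptors and signals of these matrix proteins completed the set. Of 30 tested, 7 (23.3%) were higher in each lineage, beside 12.9% and 16.6% of all genes, with a median log2 fold change of -0.04. The integrin subunits *Itgb5* and *Itgb3*, which pair with the alpha-v subunit to bind periostin, were 15.0-fold and 4.50-fold higher in Fgfr3CE-E12.5 cells (adjusted p = 5.03e-05 and 0.00110 by edgeR). *Itgb5* was at 247 and 346 CPM in these libraries against 16.5 to 23.3 CPM. The growth factor *Tgfb1* was 14.8-fold higher in Fgfr3CE-E12.5 cells (adjusted p = 9.63e-05), at 52.7 and 85.9 against 3.86 to 5.48 CPM. *Itgb3* and *Tgfb1* are also expressed by blood cells, and the leukocyte markers given above were higher in the same libraries, whose part in these values was not tested. Higher in Dlx5CE-E12.5 cells were *Ltbp2*, a microfibril protein, the coreceptor *Tgfbr3* and *Itga8*, an integrin subunit for tenascin C, at 4.62-fold, 3.01-fold and 3.03-fold (adjusted p = 0.00115, 0.00534 and 0.000907).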

How the data were processed

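Bulk RNA-seq of sorted stromal cells was analysed from gene counts in 5 libraries, grouped by the sample labels. The authors aligned reads to mm10 with TopHat2 2.0.13 and Bowtie2 2.2.1 and deposited raw counts per gene. The submitters' notes also name HTSeq, and the strand setting is not given in the sources used here. The deposited normalized and rlog tables were not used. Gene types and coordinates came from GENCODE M21 (29965 identifiers matched, 76 not), and promoters from RefSeq.

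Protein-coding genes (17087) and 5 reporter sequences entered with a CPM of at least 10, or in a second fit at least 1, in at least 2 libraries. The first filter is that of the study's methods. CPM for these filters was not TMM-scaled. Passing a filter through the libraries of 1 lineage alone favours a call in that lineage. Such genes are counted in the shares of the lists and of all genes tested. Counts were fitted in edgeR 4.0.16 (R 4.3.3) with TMM, the quasi-likelihood test, lineage alone, and Benjamini-Hochberg adjustment over all genes tested. Standard errors came from dividing each fold change by the root of its F value. The p-values measure the spread between libraries of pooled mice. The one-sided exact permutation test of 3 against 2 libraries cannot go below 0.1 and was not used. Libraries were not paired by replicate number. Their deviations from the lineage mean correlated at 0.133 for number 2 and -0.0529 for number 3. With 2 Fgfr3CE-E12.5 libraries these deviations are equal and opposite, so the correlations cannot settle whether the numbers pair.

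The members and lists were chosen with earlier results of these data known. Named are all 10 members; from each list without cell type markers, up to 3 genes in each direction with the largest change among those called at 1 CPM without overlap; and from each marker list the 3 highest genes. The Schwann cell marker list is not reported here. Genes at the floor were named by their counts. Alternatives were DESeq2 1.42.0 (size factors, Wald test), library size alone, edgeR's exact test and glmTreat, other filters and thresholds, all features, removal of trends on GC content or length, the replicate block, the longest transcript as length, and each library left out, where a lone Fgfr3CE-E12.5 library is assumed to vary like the Dlx5CE-E12.5 libraries. Marker sums without their leading gene and levels per longest transcript in each library were added after seeing the data.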

Additional observations from a re-analysis of the deposited data

How the results depend on the processing

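The Fgfr3CE-E12.5 lineage had 2 libraries, and the 5 members below the 1 CPM filter had counts of 0 to 75 per library. At the 10 CPM filter, the count of members called higher in Dlx5CE-E12.5 cells went from 1 to 0 under glmTreat. The count higher in Fgfr3CE-E12.5 cells, 0 as reported by edgeR's quasi-likelihood test, its exact test and DESeq2, was 1 with no fold threshold, 1 at the 1 CPM filter and 2 with no filter, and 1 of the 3 members had an unadjusted p under 0.05 in that direction. At the 1 CPM filter, glmTreat gave 0 in each direction in place of 1, and the count higher in Fgfr3CE-E12.5 cells was 2 with no fold threshold, 2 with no filter, 0 at the 10 CPM filter and 0 to 1 with a library left out. The log2 fold change of *Tnc* changed sign with library size alone (0.049), with the transcript length trend removed (0.24) and without Fgfr3CE-E12.5 replicate 3, and that of *Tnmd* without Dlx5CE-E12.5 replicate 2 (-0.21) or Fgfr3CE-E12.5 replicate 3 (-0.03). Over the settings that drop 1 library, the values of *Tnc* ran from -0.57 to 0.16 and those of *Tnmd* from -0.21 to 0.57. The cause was not tested. With the replicate block, the call of *Scx* was lost (adjusted p = 0.0657), and 1382 and 1678 genes were called in place of 1318 and 1653. Library size alone moved the median log2 fold change of all genes to 0.22 and the share of calls higher in Fgfr3CE-E12.5 cells from 55.6% to 66.3%. Among the counts for the lists, glmTreat, which tests beyond 2-fold, lowered 10 of 12 by more than 1.5 times.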

Other observations

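Genes of the joint lining and articular surface, which lie beside the periosteum and tendon, were listed apart from the members. Of 9 tested, 4 (44.4%) were higher in Dlx5CE-E12.5 cells and 3 (33.3%) in Fgfr3CE-E12.5 cells, beside 12.9% and 16.6% of all genes, and the 12 listed summed to 2589 to 2962 CPM in Dlx5CE-E12.5 cells and 1015 and 682 CPM in Fgfr3CE-E12.5 replicates 2 and 3. *Dpep1* and *Clu* led that sum, at means of 1592 and 1146 CPM in Dlx5CE-E12.5 cells against 321 and 454 CPM, and *Cd55* was the opposite at 8.70 against 47.3 CPM. The sum in Dlx5CE-E12.5 cells was thus mostly *Dpep1* and *Clu*. *Prg4*, *Gdf5* and *Sema3e* were low in both lineages. Their means were 1.93, 1.78 and 0.410 CPM in Dlx5CE-E12.5 cells and 0.335, 1.64 and 0.0569 CPM in Fgfr3CE-E12.5 cells. *Cytl1* had at most 3 counts in each Dlx5CE-E12.5 library.

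The 12 mural cell markers, led by *Mylk*, *Notch3* and *Abcc9*, summed to 847 to 1114 CPM in Dlx5CE-E12.5 cells and 745 and 521 CPM in Fgfr3CE-E12.5 cells. *Mylk* carried this gap, since without it, a sum added after seeing the data, they came to 346 to 473 against 438 and 327 CPM and overlapped. Of 10 mural markers tested, 3 (30%) were called in each direction, beside 12.9% of all genes higher in Dlx5CE-E12.5 cells and 16.6% in Fgfr3CE-E12.5 cells. *Acta2*, *Cspg4* and *Tagln* were higher in Fgfr3CE-E12.5 cells, and *Myh11*, *Des* and *Mylk* were higher in Dlx5CE-E12.5 cells. The 15 endothelial markers, led by *Eng*, *Pecam1* and *Egfl7*, summed to 219 to 268 against 131 and 124 CPM, a gap carried by *Eng*, which also stands in the periosteum list. Without *Eng* they came to 37.0 to 61.2 against 45.7 and 66.8 CPM and overlapped, and the median log2 fold change of the list was 0.09. Of the 15, 3 (20%), *Eng*, *Cdh5* and *Ptprb*, were called higher in Dlx5CE-E12.5 cells and 0 in Fgfr3CE-E12.5 cells, beside 12.9% and 16.6% of all genes. The 9 erythroid markers with counts, led by *Hbb-bs*, *Hba-a1* and *Hba-a2*, summed to 17814 to 36306 against 13891 and 20660 CPM, and the lineages overlapped. Of these 9, 2 (22.2%), *Hbb-bt* and *Hba-a1*, were called higher in Dlx5CE-E12.5 cells and 0 in Fgfr3CE-E12.5 cells, beside the same shares of all genes.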
